A study of Mus musculus with 32 samples.

Results

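The granulocyte granule and maturation genes are 33 genes, listed by name, that encode the contents of neutrophil granules and other proteins of maturing granulocytes. Of these, 31 had a probe set assigned to that gene alone, among 18194 genes measured in the series, and Retnlg and Cebpe were not analysed here. They were followed in mouse cells on 32 arrays from 3 experiments built around Ebf1, a transcription factor that early B-cell development requires. In the main experiment, 8 numbered, enlarged lymph nodes of C57BL/6 mice of about 30 weeks that were heterozygous for both Ebf1 and Pax5 (Ebf1+/-Pax5+/-) were measured on 2 arrays each, and sorted pro-B cells of wild-type C57BL/6 mice on 1 array for each of 2 samples, 621 and 622. The lymph node cells had been frozen, thawed and sorted as live cells, and since the design text names no marker for that sort, any live cell type of the node could be present. The markers used to sort the pro-B cells, their organ of origin and the age of their donors were not given in the sources used here. Genotype, tumour, tissue, sort and freezing differ together between these groups and cannot be told apart. The other experiments were 3 arrays of the 230238 pre-B cell line carrying pMIG-Ebf1-Engrailed, a fusion of Ebf1 to a repressor domain, with 3 arrays carrying the empty pMIG vector, and Ebf1-/- fetal liver cells of embryonic day 14.5, expanded on OP9 stromal cells and carrying Ebf1-ER, on 2 arrays each at 0, 6, 12 and 24 h after 0.1 uM 4-hydroxytamoxifen, which activates Ebf1-ER. Cells of both of these experiments had been sorted for the GFP of the vector, and the Ebf1-ER cells (strain C57BL/6J, with KIT ligand, FLT3L and interleukin-7) were returned to OP9 stroma after the sort, before 4-hydroxytamoxifen was added.

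Neutrophils make their granules in sequence as they mature in the bone marrow. Primary granules form first and hold myeloperoxidase and serine proteases, secondary granules follow with iron-binding and antimicrobial proteins, and tertiary granules come last with gelatinase. In general, transcripts of primary granule proteins mark immature cells, whereas those of secondary and tertiary granules and of S100a8 and S100a9 persist into later stages. By the roles assigned here, the measured genes comprised 4 primary granule genes, 10 secondary granule genes and 1 tertiary granule gene. The others were 3 cytosolic proteins, 9 receptors or membrane proteins, 3 secreted proteins not placed in those granule groups and 1 nuclear protein.

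All values are log2 RMA values that had been centred, so a value is not an absolute level, and 1 unit is a 2-fold difference. In the 230238 and Ebf1-ER experiments 0 was the median of every probe set over the arrays. In the tumour experiment that held for 24.05% of probe sets, so 0 there need not be the middle. What the tumour values were centred on is not known. Levels of different genes, and of the same gene in different experiments, cannot be set against each other. Array medians lay between -0.014 and 0.049. Of the 5 probe sets of Ebf1, 4 were lower in the lymph nodes than in wild-type pro-B cells, by log2 changes between -1.01 and -0.72, and the other was higher (4.48 ± 0.18 SE). Among 8 early B-cell markers, none was called lower in the lymph nodes at an adjusted p under 0.05 in limma. Ebf1, on that last and most variable probe set, was the only one called higher. At an unadjusted p under 0.05, 2 of the 8 were higher and 2 lower, and the changes ran from -3.20 to 4.48.

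In the tumour lymph nodes all 31 measured genes were lower than in wild-type pro-B cells, and in none of them did the 8 lymph nodes overlap with the 2 wild-type samples. Over all genes the background of calls was 8.66% lower and 11.3% higher, and 12.8% of genes were lower without overlap of the groups. The log2 changes ran from -9.45 to -2.32 with a median of -6.67, a 102-fold difference, against a median of 0.019 over all genes. The median was -7.85 in the secondary granule genes, -6.55 in the primary granule genes and -4.75 in the receptors and membrane proteins. Of all 18194 genes, the 10 with the largest decreases included 9 of these genes, the 50 with the largest decreases included 22, and the 100 with the largest included 27. The 31 genes were chosen with earlier results of these data known, so their calls and ranks are not independent evidence. Calls were made in limma, with Benjamini-Hochberg adjustment over all genes and a threshold of 0.05, and the adjusted p of the 31 lay between 5.7e-09 and 0.0076. In a sample of mixed cells, the number of cells of a type and the RNA per cell cannot be told apart. That limit holds for the lymph nodes, and for the pro-B samples too, since their sort markers were not given and their purity was not tested. Where a gene is said to fall in the lymph nodes, its values were lower than in these 2 pro-B samples. Since nothing states that replicates came from separate cultures or animals, the p-values here reflect only how far these samples spread, and that spread may be technical.

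**Figure D1:**
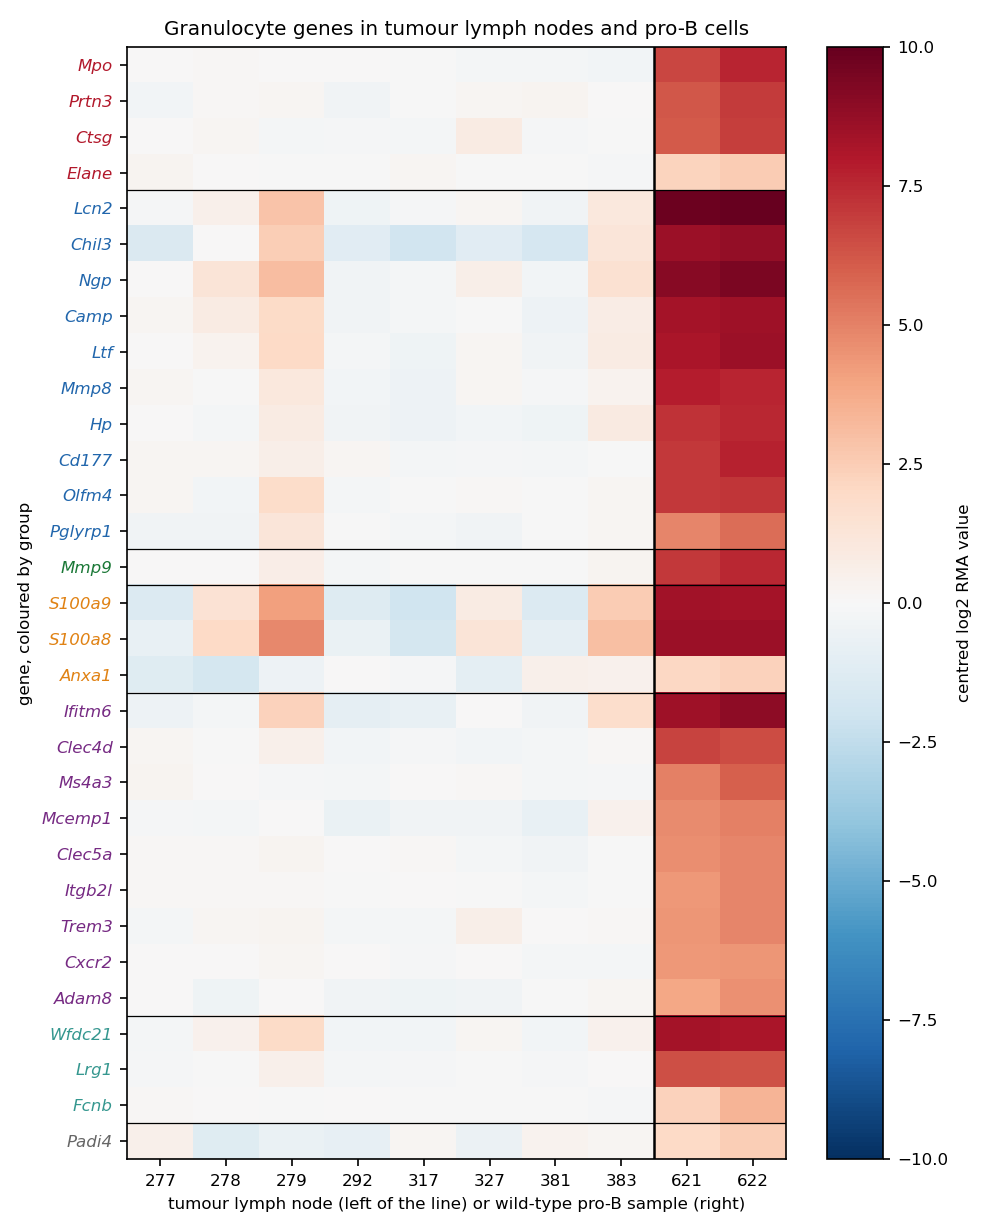
Centred log2 RMA values of the 31 genes (rows, coloured and ruled off by role: primary, secondary and tertiary granule, cytosolic, receptor or membrane, other secreted, nuclear) in the 8 tumour lymph nodes (left of the vertical line, mean of 2 arrays each) and the 2 wild-type pro-B samples (right). Every gene is higher in both pro-B samples than in any lymph node, and lymph node 279 has the highest value of the 8 for 18 of the 31.

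The primary granule genes were lower in every lymph node than in both pro-B samples. Mpo, the myeloperoxidase that makes hypochlorous acid, had values of -0.27 at the lowest, -0.01 at the median and 0.10 at the highest in the 8 lymph nodes, against 6.69 and 7.61 in wild-type samples 621 and 622. The lymph nodes lay within 0.37 of each other and far below both pro-B samples. Mpo was 148-fold lower (log2 change -7.21 ± 0.20 SE, n = 8 and 2, limma adjusted p = 7.06e-09). Prtn3, proteinase 3, ran from -0.33 through 0.09 to 0.26 in the lymph nodes, against 6.21 and 7.02 in the wild-type samples, and was 96.8-fold lower (-6.60 ± 0.21). The corresponding values of Ctsg, cathepsin G, were -0.20, -0.09 and 0.80 in the lymph nodes, against 6.17 and 6.90 in the wild-type samples, a change of -6.50 ± 0.26. Elane, neutrophil elastase, showed the smallest change of the 31, and its groups did not overlap. Its values lay between -0.08 and 0.31 in the lymph nodes, against 2.19 and 2.55 in the wild-type samples, a 5.0-fold difference (-2.32 ± 0.13, adjusted p = 8.21e-07). In all 4 genes wild-type sample 622 exceeded 621, by 0.36 to 0.92.

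The promoters of 2 primary granule genes are shown, the first 2 of their list that had a promoter window, and those of 2 secondary granule genes, chosen likewise, follow below. The sequences are from RefSeq, assembly GRCm38.p6, and run 5′ to 3′ on the strand of the gene from 250 bases before its start to 50 after. The motifs GAGGAAGT, which resembles the site of PU.1, and TTGNNCAA, which resembles that of C/EBP factors, were searched on both strands, and matches are in capitals. Elane lies on the plus strand at chr10:79886062-79886361 and Mpo on the plus strand at chr11:87793534-87793833. The match begins 85 bases before the start in Elane, at position -85, and at -224 in Mpo.
Elane: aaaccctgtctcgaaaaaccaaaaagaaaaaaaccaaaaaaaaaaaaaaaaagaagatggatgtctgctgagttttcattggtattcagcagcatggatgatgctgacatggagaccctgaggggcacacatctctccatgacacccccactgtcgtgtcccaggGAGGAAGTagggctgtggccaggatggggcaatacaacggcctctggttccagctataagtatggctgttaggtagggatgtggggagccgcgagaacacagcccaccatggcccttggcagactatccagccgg
Mpo: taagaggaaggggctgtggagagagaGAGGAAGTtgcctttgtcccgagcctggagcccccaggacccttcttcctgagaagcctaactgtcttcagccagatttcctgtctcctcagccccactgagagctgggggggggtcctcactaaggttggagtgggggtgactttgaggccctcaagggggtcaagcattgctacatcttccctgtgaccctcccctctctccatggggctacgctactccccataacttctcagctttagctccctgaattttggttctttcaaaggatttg

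The promoter table held 28 of the 33 listed genes. GAGGAAGT stood in 7 of these 28 windows, including 3 of the 4 primary granule genes (Elane, Mpo and Prtn3) and 2 of 9 secondary granule genes, and in 3.28% of 27025 windows of all genes. TTGNNCAA stood in 8 of the 28, including none of the 4 primary granule genes and 4 of the 9 secondary granule genes, and in 6.47% of all windows. A match describes letters only.

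The secondary granule genes included the largest decreases of the whole series. Lcn2, the siderophore-binding protein lipocalin 2, had values of -0.41 at the lowest, 0.03 at the median and 2.85 at the highest in the lymph nodes, against 9.82 and 9.97 in wild-type samples 621 and 622. Even the highest lymph node stayed 6.97 below the lower pro-B sample. Its change of -9.45 ± 0.72 (adjusted p = 1.24e-05), a 700-fold difference, was the largest decrease of all 18194 genes. Chil3, a chitinase-like protein of mouse myeloid cells, ran from -1.89 through -1.12 to 2.42 in the lymph nodes, against 8.57 and 8.76 in the wild-type samples, and was 559-fold lower (-9.13 ± 1.02). Ngp, neutrophilic granule protein, ran from -0.34 through 0.29 to 3.07 in the lymph nodes, against 9.10 and 9.40 in the wild-type samples, a change of -8.54 ± 0.79. The SD over the 8 lymph nodes was 1.09 for Lcn2, 1.55 for Chil3 and 1.19 for Ngp, against 0.14 for Mpo.

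Camp, the mouse cathelicidin, was 271-fold lower (-8.08 ± 0.54) and Ltf, the iron-binding lactoferrin, 266-fold lower (-8.06 ± 0.53). Mmp8, neutrophil collagenase, changed by -7.64 ± 0.31, Hp, the haemoglobin-binding haptoglobin, by -7.39 ± 0.37, and Cd177, a surface glycoprotein also found on granule membranes, by -7.34 ± 0.22. Olfm4, olfactomedin 4, changed by -6.87 ± 0.45 and Pglyrp1, a peptidoglycan recognition protein, by -5.21 ± 0.37. The promoters of Ltf and Lcn2 show the C/EBP-like match in capitals, which 4 of the 9 secondary granule genes with a promoter window held. Ltf lies on the plus strand at chr9:111019042-111019341, with the match from -75, and Lcn2 on the minus strand at chr2:32387690-32387989, with the match from -216.
Ltf: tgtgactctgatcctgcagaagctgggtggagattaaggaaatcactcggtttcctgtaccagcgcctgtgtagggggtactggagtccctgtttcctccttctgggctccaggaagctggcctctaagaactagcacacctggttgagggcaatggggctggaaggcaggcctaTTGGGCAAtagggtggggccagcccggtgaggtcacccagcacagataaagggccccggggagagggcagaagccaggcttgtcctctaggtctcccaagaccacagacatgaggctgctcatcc
Lcn2: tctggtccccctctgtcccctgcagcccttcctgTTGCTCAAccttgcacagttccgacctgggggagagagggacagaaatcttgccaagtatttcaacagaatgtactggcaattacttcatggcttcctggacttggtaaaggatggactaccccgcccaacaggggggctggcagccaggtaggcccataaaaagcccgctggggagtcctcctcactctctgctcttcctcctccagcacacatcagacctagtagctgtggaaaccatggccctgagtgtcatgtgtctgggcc

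Mmp9, the gelatinase of tertiary granules, fell as far as the secondary granule genes and varied little. Its values lay between -0.23 and 0.64 in the lymph nodes, against 7.09 and 7.55 in the wild-type samples, and it was 151-fold lower (-7.24 ± 0.21). Its other probe set gave -5.75 ± 0.17.

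S100a8 and S100a9, the calcium-binding subunits of calprotectin, fell by as much but with the widest spread of the 31. S100a8 had values of -1.80 at the lowest, 0.32 at the median and 4.77 at the highest in the lymph nodes, against 8.53 and 8.55 in the wild-type samples. S100a9 ran from -1.97 through -0.23 to 4.10 in the lymph nodes, against 8.36 and 8.34 in the wild-type samples. The pro-B samples nearly coincided, whereas lymph nodes differed 94.6-fold in S100a8 and 67.0-fold in S100a9. The changes were -7.67 ± 1.5 for S100a8 (203-fold, adjusted p = 0.00603) and -7.99 ± 1.46 for S100a9 (adjusted p = 0.00430). The call was lost without 622 for either gene (adjusted p = 0.0709 for S100a8 and 0.0577 for S100a9) and without 621 for S100a8 (adjusted p = 0.0576). Anxa1, the phospholipid-binding annexin A1, ran from -1.77 through -0.28 to 0.51 in the lymph nodes, against 2.09 and 2.31 in the wild-type samples. Its change was -2.65 ± 0.54 on the probe set used and -2.36 ± 0.26 on the other. The call of the probe set used was lost without either pro-B sample (adjusted p = 0.0590 without 621 and 0.0900 without 622).

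**Figure D2:**
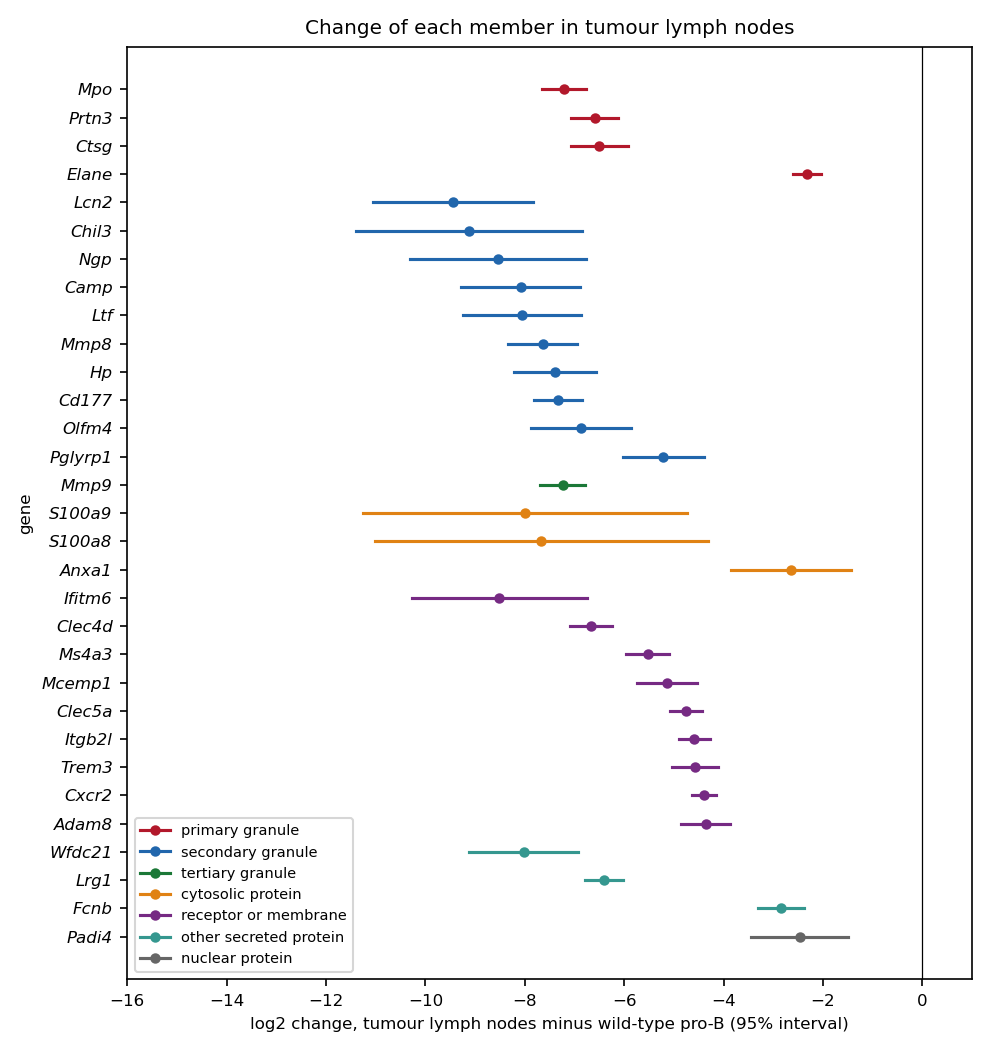
Log2 change of each of the 31 genes, 8 tumour lymph nodes minus 2 wild-type pro-B samples (points, coloured by role), with limma's 95% confidence interval (bars). All intervals lie below 0, between Lcn2 with the largest decrease at -9.45 and Elane with the smallest at -2.32, and those of S100a8 and S100a9 are the widest.

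Among receptors and membrane proteins, Ifitm6, a member of the interferon-induced transmembrane family, was 367-fold lower (-8.52 ± 0.79). The other 8 changed by between -6.67 and -4.36. Clec4d, a C-type lectin receptor for mycobacterial glycolipid, was 102-fold lower, with values from -0.27 to 0.47 in the lymph nodes, against 6.79 and 6.54 in the wild-type samples. Cxcr2, the chemokine receptor that draws neutrophils from the marrow, was 21.1-fold lower (-4.40 ± 0.11). Ms4a3, a four-pass membrane protein of granulocyte-monocyte progenitors, changed by -5.53 ± 0.19. The remaining 5 were Mcemp1 (-5.14 ± 0.27), the lectin Clec5a (-4.75 ± 0.15), the integrin subunit Itgb2l (-4.59 ± 0.14), the receptor Trem3 (-4.57 ± 0.21) and the metalloproteinase Adam8 (-4.36 ± 0.22). Only 1 of the 3 probe sets of Itgb2l was lower, the other 2 gave changes of 0.14 and 0.61 that did not pass the test, and the mean of the 3 changed by -1.28.

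Of the secreted proteins outside the granule groups, Wfdc21, a whey acidic protein domain gene, was 260-fold lower (-8.02 ± 0.49) and Lrg1, a leucine-rich glycoprotein, 84.7-fold lower (-6.41 ± 0.17). Fcnb, the lectin ficolin B, changed by -2.84 ± 0.20, and its pro-B samples differed most of all 31, with 2.30 in 621 and 3.37 in 622. Padi4, the nuclear enzyme that citrullinates histones, changed by -2.46 ± 0.44, with values from -1.21 to 0.53 in the lymph nodes, against 2.00 and 2.44 in the wild-type samples. Its call was lost without 622 (adjusted p = 0.0664).

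Neutrophil genes outside the list were also lower, in part. Of 23 measured genes in 6 lists of granulocyte-associated genes 16 fell and none rose, against 8.66% lower and 11.3% higher over all genes. The median change was -2.11, and no gene of these lists was higher at an unadjusted p under 0.05. Of 3 chemoattractant and cytokine receptors 3 fell, as did all 3 measured adhesion and signalling genes. Of 5 transcription factors 3 fell, of 4 NADPH oxidase subunits 1, of 4 protease inhibitor and packaging genes 3, and of 4 other products 3. The largest changes were those of the formyl peptide receptor Fpr2 (-7.09 ± 0.48), the histidine decarboxylase Hdc (-5.69 ± 0.20), Cebpd, a C/EBP factor (-5.49 ± 0.53), the signalling adaptor Tyrobp (-5.30 ± 0.79), the lysozyme Lyz2 (-4.97 ± 1.2) and the protease inhibitor Slpi (-4.86 ± 0.25).

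Markers of several other cell types were lower in the lymph nodes as well, where 8.66% of all genes were called lower, and their part in the result was not tested. All 5 measured mast cell and basophil markers fell, and their mean ran from -0.12 to 0.16 in the lymph nodes, against 3.47 and 3.67 in the wild-type samples. Mcpt8, a basophil protease, had values between -0.25 and 0.67 in the lymph nodes, against 6.12 and 6.73 in the wild-type samples. Of 8 macrophage and monocyte markers 6 fell, of 5 eosinophil markers 3, of 5 erythroid markers 3 and of 8 stromal and endothelial markers 4, with none called higher. At an unadjusted p under 0.05 in limma, 1 macrophage and monocyte marker was higher, and the highest change of that list was 1.17. The means were -0.84 to 0.47 in the lymph nodes against 1.64 and 1.34 in the wild-type samples for macrophages, -0.12 to 0.27 against 0.87 and 1.03 for eosinophils, -0.12 to 0.24 against 1.97 and 1.93 for erythroid cells, and -0.13 to 0.40 against 0.21 and 0.87 for stroma and endothelium. None of the markers of T cells (6), NK cells (4) or plasma cells (4) was called, and none had an unadjusted p under 0.05.

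The lymph nodes were then compared with each other, which asks whether the values were the same in all 8 lymph nodes. Of the 31 genes 25, or 80.6%, differed between lymph nodes by more than the 2 arrays of a lymph node did, in limma's moderated F test with Benjamini-Hochberg adjustment, against a background of 59.7% over all genes. The range over lymph nodes exceeded 1 log2 unit for 16 of the 31, or 51.6%, against 25.4% of all genes. The 2 arrays of a lymph node differed by a median of 0.18 over these genes.

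All 10 secondary granule genes were called, and their ranges lay between 0.81 and 4.32 log2 units. Of the 4 primary granule genes 3 were called, with ranges from 0.37 to 0.99. Mpo, Cxcr2, Clec5a, Itgb2l, Ms4a3 and Fcnb were not called.

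Lymph node 279 held the highest value for 18 of the 31 genes, including 9 of 10 secondary granule genes, Mmp9, S100a8 and S100a9, but for none of the 4 primary granule genes. It was the highest node for 9.20% of all genes, so its absence from the 4 primary granule genes is no departure from that share. In Mpo the nodes differed by at most 0.37, less than the largest difference between 2 arrays of a node (0.65). In S100a8, 279 stood at 4.77, 383 at 2.98, 278 at 2.02 and 327 at 1.28, whereas 292 (-0.64), 277 (-0.72), 381 (-0.89) and 317 (-1.80) lay lower. The same 3 nodes led in Ngp, with 3.07 in 279, 1.53 in 383 and 1.29 in 278, and in Lcn2, with 2.85 in 279, 1.06 in 383 and 0.50 in 278. In Elane the highest node was 277 at 0.31, with 279 at -0.03. Of the primary granule genes, Ctsg alone had a node well apart, 327 at 0.80.

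Olfm4 and Pglyrp1 were raised in lymph node 279 and little elsewhere. Olfm4 stood at 1.84 in 279 and at 0.22 in 383, the next highest, and Pglyrp1 at 1.19 in 279 and 0.19 in 383. Padi4 and Anxa1 followed another order. Padi4 was highest in 277 at 0.53 and lowest in 278 at -1.21, and Anxa1 was highest in 381 at 0.51 and lowest in 278 at -1.77.

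**Figure D3:**
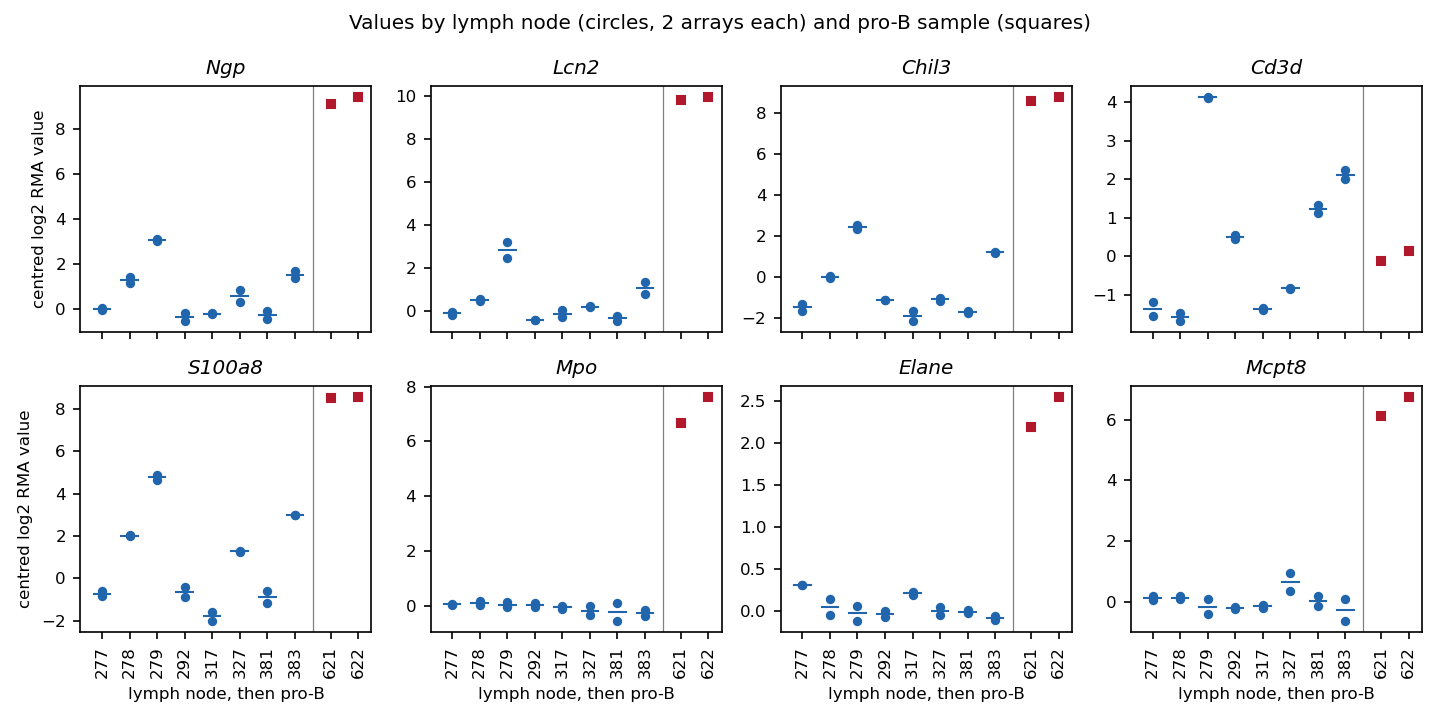
Centred log2 RMA values in each tumour lymph node (circles, 2 arrays, with a bar at their mean) and each wild-type pro-B sample (squares) for the secondary granule genes Ngp, Lcn2 and Chil3, S100a8, the primary granule genes Mpo and Elane, the T-cell marker Cd3d and the basophil marker Mcpt8. Each panel has its own vertical scale. Lymph nodes 279 and 383 are highest in Ngp, Lcn2, Chil3, S100a8 and Cd3d, while Mpo, Elane and Mcpt8 show no such peak.

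Markers of T cells were highest in the same lymph node, and their part in the result was not tested. Their mean over 6 genes was 2.71 in 279, 1.45 in 383 and 0.89 in 381, and lay between -0.84 and 0.25 in the other 5 nodes. Cd3d, a chain of the T-cell receptor complex, had values of 4.12 in 279 and 2.12 in 383. The NK-cell mean was likewise highest in 279 at 2.43, the plasma-cell mean at 1.05 and the macrophage mean at 0.47. Without lymph nodes 279 and 383, all 31 genes remained lower than in the pro-B cells, with S100a8 at -8.66 ± 0.94 and Lcn2 at -9.95 ± 0.24. Among lymph nodes, the calls of Mmp8, Cd177, Pglyrp1, Mmp9, Clec4d and Lrg1 were lost without 279 (adjusted p from 0.0534 to 0.807), that of Elane without 277 (0.161), that of Ctsg without 327 (0.543) and that of Prtn3 without 277, 292 or 381 (0.0571 to 0.102).

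The comparison of Ebf1-Engrailed with the empty vector asked which of these genes respond to a repressive form of Ebf1 in a pre-B cell line. Of the 31 genes 4 rose, a larger share than the background of 7.93% higher but few genes, and none fell, against 5.67% lower in limma. At an unadjusted p under 0.05 the counts were 6 higher and none lower. The share of all genes at that threshold was not computed, and the backgrounds above are for adjusted calls. The median change was 0.03. No primary or secondary granule gene was called, and none had an unadjusted p under 0.05. The 4 primary genes lay between -0.02 and 0.17 and the 10 secondary genes between -0.19 and 0.15.

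Mmp9 rose most. It had 2.57, 2.57 and 1.89 in the 3 Ebf1-Engrailed samples, against -1.98, -1.89 and -1.97 in the 3 empty vector samples. The groups were more than 3 log2 units apart, and the change was 19.6-fold (4.29 ± 0.19 SE, n = 3 and 3, limma adjusted p = 8.60e-05). Its other probe set gave 3.45 ± 0.29. Anxa1 had 2.08, 2.07 and 2.02 in Ebf1-Engrailed samples, against -2.39, -2.24 and -2.02 in empty vector samples, a 19.3-fold rise (4.27 ± 0.12, adjusted p = 2.32e-05). Only this probe set moved, and the other gave -0.21 ± 0.16.

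Clec4d had 1.56, 1.55 and 1.24 in Ebf1-Engrailed samples, against -1.34, -1.31 and -1.24 in empty vector samples, and rose 6.70-fold (2.74 ± 0.12). Adam8 had 0.62, 0.47 and 1.12 in Ebf1-Engrailed samples, against -0.90, -0.47 and -0.57 in empty vector samples, and rose 2.61-fold (1.38 ± 0.20, adjusted p = 0.00515). The groups did not overlap in either gene. Ifitm6 changed by 0.71 ± 0.20, with an adjusted p of 0.0663, and was called higher without Ebf1-Engrailed replicate 3 (0.92, adjusted p = 0.0113), which made the count of higher genes 5. Padi4 changed by 0.27 ± 0.11 (adjusted p = 0.176). Trem3, at -0.49 ± 0.23 (adjusted p = 0.235), passed the test as lower when the replicate number was a block in the fit (adjusted p = 0.0388), which made the count of lower genes 1.

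**Figure D4:**
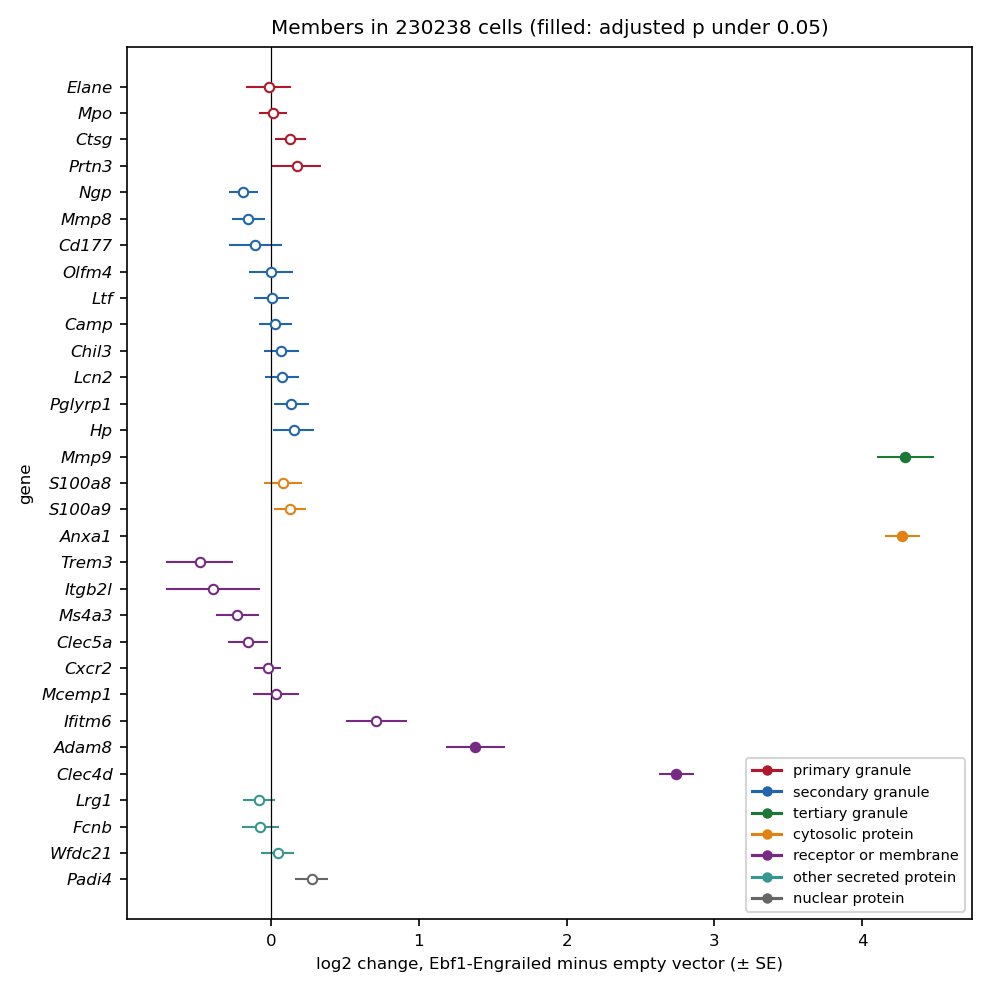
Log2 change of each of the 31 genes in 230238 cells, 3 Ebf1-Engrailed samples minus 3 empty vector samples, with limma's standard error (bars), coloured by role. Filled points passed the test: Mmp9 (4.29), Anxa1 (4.27), Clec4d (2.74) and Adam8 (1.38), while the primary and secondary granule genes lie between -0.19 and 0.17.

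Of the 23 related granulocyte genes 3 rose and 5 fell with Ebf1-Engrailed, against 7.93% higher and 5.67% lower over all genes. The largest changes were increases of the protease inhibitor Serpinb1a (2.61 ± 0.23), the cystatin Cst7 (2.00 ± 0.20) and Tyrobp (0.99 ± 0.23), and decreases of the decoy receptor Il1r2 (-1.49 ± 0.25), Slpi (-1.33 ± 0.30) and the oxidase subunit Ncf1 (-1.18 ± 0.25). By list, 1 of 5 transcription factors, 1 of 3 receptors, 2 of 4 oxidase subunits and 1 of 4 protease inhibitor and packaging genes fell, and 1 adhesion gene, 1 protease inhibitor and 1 other product rose. Of 8 macrophage and monocyte markers 4 rose and none fell, and their mean was 0.48 to 0.61 in the Ebf1-Engrailed samples, against -0.52 to -0.35 in the empty vector samples. Their part in the result was not tested. Of 8 early B-cell markers 5 fell.

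In the Ebf1-ER cells, 13 of the 31 genes were called against 0 h at 1 or more of the 3 later times, and 18 at none. The share of all genes called at any of these times was not computed, so these 2 counts alone show no response particular to the 31. At 6 h 4 rose and 2 fell, against backgrounds of 18.6% higher and 16.4% lower. At 12 h 4 rose and 5 fell, against 19.9% higher and 19.9% lower. At 24 h 3 rose and 5 fell, against 21.0% higher and 17.8% lower. Each share was at or below its background. The medians were 0.05, 0.09 and -0.01, against 0.03, 0.03 and 0.05 over all genes. These comparisons share the 0 h arrays.

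Mpo was the one primary granule gene that fell. It had 0.73 and 0.88 at 0 h, -0.27 and -0.11 at 6 h, 0.21 and 0.11 at 12 h, and -1.29 and -1.11 at 24 h. The arrays of each time lay close together, and the lowest values were those of 24 h. Against 0 h, Mpo changed by -0.99 at 6 h and by -0.65 at 12 h, and both passed the test. At 24 h it was 4.02-fold lower than at 0 h (-2.01 ± 0.11 SE, n = 2 and 2, limma adjusted p = 1.31e-05). Against 6 h, without the 0 h arrays, it was 2.02-fold lower (-1.01 ± 0.11, adjusted p = 0.00157). Elane, Prtn3 and Ctsg changed by -0.01, -0.18 and 0.04 at 24 h against 0 h and were not called, while Ctsg was called higher at 6 h (0.27 ± 0.09, adjusted p = 0.0460) and lost that call without any 1 of the 4 arrays compared (adjusted p from 0.0622 to 0.166). In such fits the spread came from the other arrays, and the lone array of a time was assumed to vary like them.

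Hp was the secondary granule gene that fell. It had 1.66 and 0.71 at 0 h, 0.45 and 0.15 at 6 h, -0.78 and -0.77 at 12 h, and -0.76 and -0.15 at 24 h. The 0 h values were above all later ones but differed between the arrays. The change was -1.96 ± 0.31 at 12 h (adjusted p = 0.00148) and -1.64 ± 0.31 at 24 h. Wfdc21 had 1.26 and 0.49 at 0 h, 0.40 and 0.13 at 6 h, -0.37 and -0.29 at 12 h, and -0.42 and -0.13 at 24 h. It fell at 12 h (-1.21 ± 0.24) and at 24 h (-1.15 ± 0.24). Lcn2 had 1.34 and -0.07 at 0 h and was not called at any time against 0 h. Without 0 h array 2 it was called lower at 12 h (-1.70) and 24 h (-1.38), and without array 1 it was called higher at 6 h (0.95).

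Some stromal markers also differed between the same 0 h arrays. The collagen gene Col1a2 had 1.15 in array 1 and 0.36 in array 2 at 0 h, and Sparc, which encodes the matrix protein osteonectin, 0.89 and -0.16. Col1a1 and Col3a1 were higher in array 1 too. The rest of the list went the other way: Pecam1 had 1.79 and 2.00, Dcn -0.05 and 0.18, Cdh5 -0.02 and 0.07, and Kdr -0.05 and 0.04. Of 8 stromal and endothelial markers 3 fell at 24 h against 0 h, where 17.8% of all genes fell. The mean of the 8 was -0.28 and -0.09 at 24 h, against 0.61 and 0.32 at 0 h. The cells had been grown on OP9 stroma, and the part of these markers in the result was not tested.

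**Figure D5:**
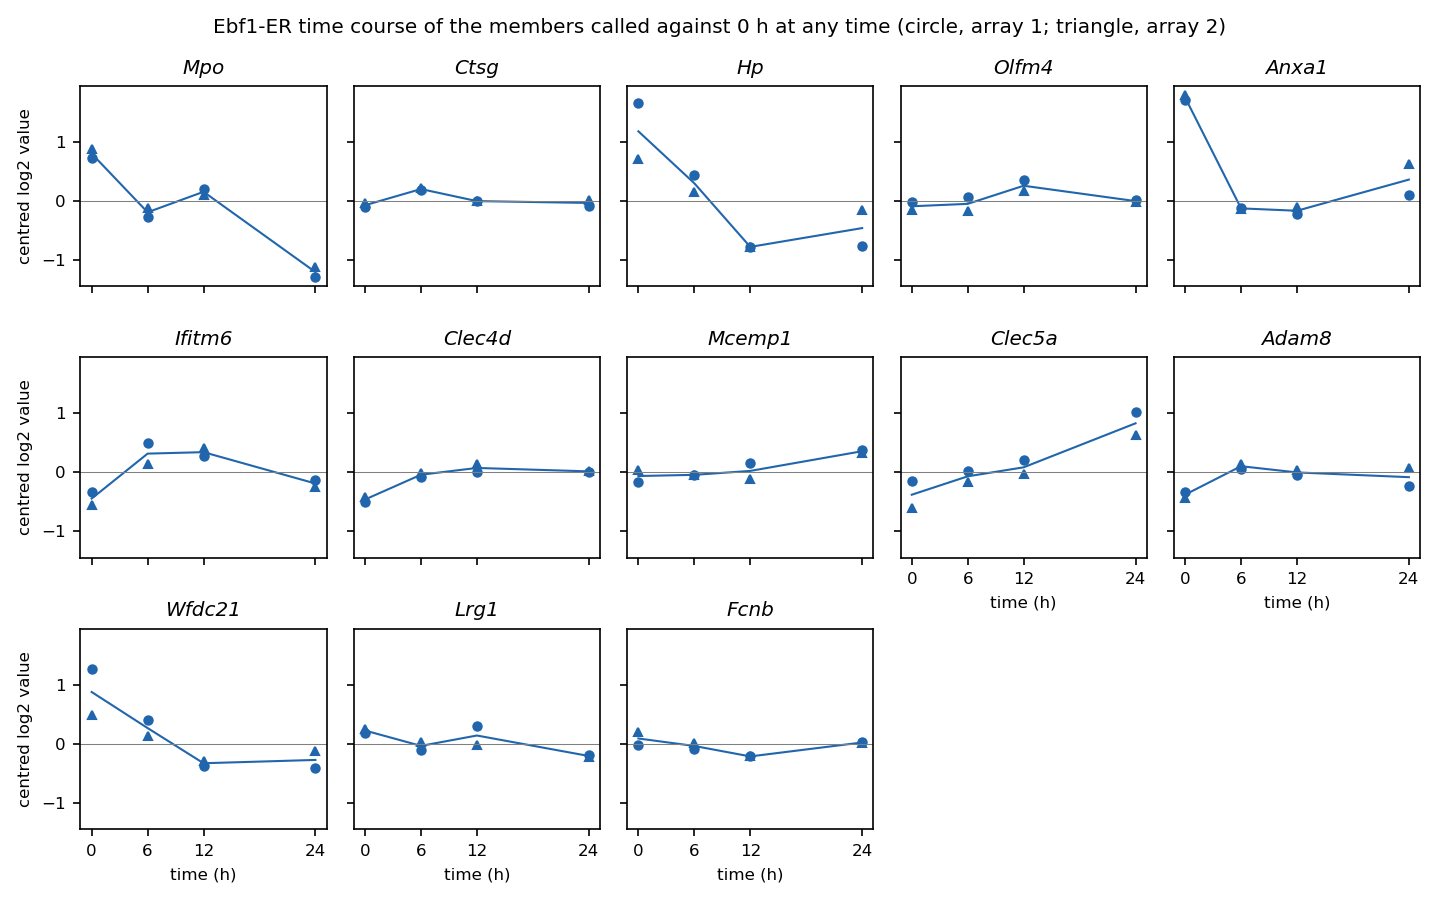
Centred log2 RMA values of the 13 genes called against 0 h at any time, in each array of Ebf1-ER cells at 0, 6, 12 and 24 h after 4-hydroxytamoxifen (circle, array 1; triangle, array 2; line, mean of the 2). Mpo, Hp, Anxa1 and Wfdc21 are highest at 0 h, and Clec5a is highest at 24 h.

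Anxa1 had 1.71 and 1.80 at 0 h, -0.12 and -0.13 at 6 h, -0.22 and -0.11 at 12 h, and 0.11 and 0.62 at 24 h. It was highest at 0 h and 2.62-fold lower at 24 h than at 0 h (-1.39 ± 0.16). Its other probe set, the one that rose with Ebf1-Engrailed, gave 0.12 at 6 h, which did not pass, and -0.62 ± 0.16 at 24 h, which did. Clec5a, which pairs with myeloid signalling adaptors, had 1.03 and 0.64 at 24 h, against -0.14 and -0.61 at 0 h, and rose 2.31-fold (1.21 ± 0.19, adjusted p = 0.00161). It was also higher at 24 h than at 6 h (0.90 ± 0.19, adjusted p = 0.0284), the comparison in which 1 gene rose and 1 fell, against backgrounds of 4.92% higher and 4.39% lower. This last call was lost without 24 h array 1 or without either 6 h array (adjusted p from 0.0868 to 0.161).

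The other changes were below 1 log2 unit. Clec4d was higher at all 3 times, by 0.42 to 0.53, Ifitm6 at 6 and 12 h by 0.76 and 0.79, and Adam8 at 6 and 12 h by 0.48 and 0.38. Mcemp1 rose at 24 h by 0.42 and Lrg1 fell by 0.43. At 12 h Olfm4 was higher by 0.35 and Fcnb changed by -0.30. Of these, the calls of Ctsg, Adam8 (12 h), Olfm4, Fcnb, Mcemp1 and Lrg1 were each lost without at least 3 different single arrays (adjusted p from 0.0572 to 0.251). At 6 h, Clec4d and Adam8 lost their calls without 6 h array 2 (adjusted p = 0.0586 and 0.0802), and Adam8 also without 0 h array 2 (0.0682). S100a8 (0.46 at 6 h) and S100a9 (0.30 at 6 h) were not called at any time. Their 0 h arrays differed, with 0.08 and -0.50 for S100a8 and -0.01 and -0.56 for S100a9. Without 0 h array 1 the changes of S100a8 and S100a9 were 0.75 and 0.58 at 6 h and 0.50 and 0.62 at 12 h. At 24 h that of S100a9 was then 0.54.

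Among the 23 related genes more fell than rose: 10 and 3 at 6 h, 13 and 1 at 12 h, 12 and 0 at 24 h against 0 h, and 9 and 0 at 24 h against 6 h. Over all genes 16.4% fell and 18.6% rose at 6 h, 19.9% and 19.9% at 12 h, and 17.8% and 21.0% at 24 h. Against 6 h the shares were 4.39% and 4.92%. The largest changes at 24 h were those of the integrin subunit Itgam (-2.34 ± 0.23), Il1r2 (-2.20 ± 0.11), the oxidase subunit Cybb (-1.66 ± 0.09), Tyrobp (-1.57 ± 0.09), Cebpd (-1.30 ± 0.12) and Ncf1 (-0.90 ± 0.10). Transcription factors fell in 3 of 5 cases at 24 h, adhesion and signalling genes in 3 of 3, oxidase subunits in 2 of 4, inhibitors and packaging genes in 2 of 4, receptors in 1 of 3 and other products in 1 of 4. All 4 oxidase subunits were lower at 24 h than at 6 h.

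The 4 genes that rose with Ebf1-Engrailed can be set beside their course with Ebf1-ER, in experiments that share no samples. Clec4d was higher in both, Adam8 was higher with Ebf1-Engrailed and at 6 and 12 h of Ebf1-ER, Anxa1 was higher with Ebf1-Engrailed on one probe set and lower with Ebf1-ER on both at 12 and 24 h, and Mmp9, on its other probe set, was not called at any time of Ebf1-ER (0.11, 0.23 and -0.11 at 6, 12 and 24 h).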

How the data were processed

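Transcript abundance was measured on Affymetrix mouse genome arrays. The authors deposited a single matrix of log2 values for 45101 probe sets on 32 arrays, and RMA is the method that the submitters' processing notes name. The log base was taken as 2 and is not given in the sources used here. For every probe set the median was 0 over the arrays of the 230238 and of the Ebf1-ER experiment, and for 24.05% of them over the 18 arrays of the tumour experiment, so the deposited log2 values had been centred. Levels and signal over background could not be read, and no filter on low values was applied. Precision is limited by the number of arrays.

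Groups came from the sample labels, and each numbered lymph node or wild-type sample was read as 1 mouse, which the labels do not explain. Of the probe sets 34958 had 1 gene symbol, 932 several and 9211 none, and only the first were used. The most variable probe set over the arrays of an experiment stood for a gene, so the one used differs between experiments for Mmp9, Anxa1 and Itgb2l. Linear models were fitted by limma 3.58.1 (lmFit and eBayes, in R 4.3.3), separately for each experiment, two-sided, with Benjamini-Hochberg adjustment over 18194 genes and a threshold of 0.05. Each lymph node entered the comparison with pro-B cells as the mean of its 2 arrays. The error given with a log2 change is its standard error in the fit. The fits were tested on simulated data with known changes.

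Ebf1-Engrailed and empty vector samples with the same number deviated together (correlations of 0.29, 0.36 and 0.44 over genes), but the labels do not say that they were paired. The reported fits left this number out, and a fit with it as a block was run as an alternative. Alternatives were the mean of all probe sets, the probe set most variable over all arrays, a variance filter, centred array medians, 1 fit over all groups, lymph nodes as a random block, a replicate block and leaving out each sample. The genes and the companion and marker lists were chosen with earlier results of these data known, and every listed gene was described or counted. Of the companion lists, at most 6 called genes per comparison are named, those with the largest changes.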

Additional observations from a re-analysis of the deposited data

Results flagged for a closer look

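In 6 of the 31 genes (19.4%) 1 lymph node stood apart from the other 7 by Dixon's test at the 95% level. The test flags about 1 in 20 groups by chance. It flagged 1989 of all 18194 genes (10.9%) in these 8 nodes, and the members' share was not tested against that. Lymph node 279 was the highest in 5 of them. Lcn2 was at 2.85 in 279 and at 1.06 in the next node. Olfm4 was at 1.84 in 279 and at 0.22 in the next node. Pglyrp1 was at 1.19, with 0.19 next, Wfdc21 at 1.92, with 0.43 next, and Lrg1 at 0.54, with 0.06 next. Ctsg was at 0.80 in lymph node 327 and at 0.16 in the next node. T-cell markers were highest in 279 too, and their part was not tested.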

How the results depend on the processing

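All 31 genes kept a negative change in the tumour lymph nodes under each alternative run, and 27 to 31 of them were called leaving out each sample. There, 521 repeated values of single genes kept their call and 6 lost it, those of S100a8, S100a9, Anxa1 and Padi4 without 1 pro-B sample, where the other is assumed to vary like the lymph nodes. Among lymph nodes the number of genes called was 19 to 25 leaving out each node, lowest without 279. With Ebf1-Engrailed the count of lower genes was 1 with the replicate block and 0 to 1 leaving out each sample, that of higher genes was 4 to 5 leaving out each sample, and the block changed no other call there. For Ebf1-ER at 6 h the count of higher genes was 2 with the variance filter, 0 in 1 fit over all groups and 1 to 6 leaving out each array, and that of lower genes was 1 with the probe set most variable over all arrays and 2 to 4 leaving out each array. At 12 h higher genes numbered 2 with the filter, 1 in the fit over all groups and 2 to 5 leaving out each array, and lower genes 3 in that fit and 4 to 5 leaving out each array. At 24 h higher genes numbered 1 and lower genes 3 in that fit. Against 6 h, higher genes numbered 0 to 1 leaving out each array and lower genes 2 with the probe set most variable over all arrays. With that probe set Anxa1 reversed, to 0.12 at 6 h against 0 h and to -0.74 at 24 h against 6 h. The cause was not tested. In Ebf1-ER cells, arrays with the same number showed only weak correlations (from -0.25 to 0.15), and the labels do not say whether they were paired. With a replicate block Ctsg at 6 h and Fcnb at 12 h lost their calls, and Prtn3 (-0.30) and Clec5a (0.46) at 12 h gained one. The pairing crossed at 24 h, added after seeing the data, left 3 genes higher and 5 lower. Centring removes signal over background, so what lies at the detection limit is unknown.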
